A study of Mus musculus with 18 samples.

Results

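The comparison described here set mouse bone marrow macrophages treated with UV-induced apoptotic bodies against macrophages of the inflammation control, across all genes measured. Its members were chosen by their labels: the 5 libraries of the UVABs group and the 5 libraries of the LPS group, 10 of the 18 libraries in the series. LPS is lipopolysaccharide, and its group was named as the positive control for inflammation. UVABs were apoptotic bodies that the labels describe as UV-induced and derived from hucMSC, and they were named as a treatment against inflammation. The remaining groups were a mock group (Con, n = 3 libraries) and STSABs (n = 5), which received apoptotic bodies of the same source made with STS. The cells of every group are labelled as bone marrow macrophages, with no strain, age, sex or genotype given. Nothing in the labels states whether the UVABs group also received LPS, the dose and duration of any treatment, or if a replicate is a culture, an animal or a repeat library, so every p-value here rests on a spread among libraries that could be technical. The series title names linolamide in apoptotic bodies and 2 abortion models, whose samples are not analysed here.

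Apoptotic bodies are membrane-bound fragments released by dying cells, which macrophages take up through receptors for exposed phosphatidylserine. LPS binds Toll-like receptor 4 and activates the transcription factors NF-kB, AP-1 and IRF3, which switch on cytokines and chemokines, and then interferon beta, which in turn induces a large set of interferon-stimulated genes. Activated macrophages also change their metabolism: the hypoxia-inducible factor HIF-1 can raise glycolytic enzymes, and ATF4 is the main transcription factor of the response to amino acid shortage.

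Library totals were 18089053 to 18582823 estimated counts in LPS and 17851457 to 18312800 in UVABs. The first principal component of the 10 libraries held 60.9% of the variance of log2 values and parted the groups, with scores of -31.0 to -27.7 in LPS and 22.8 to 39.8 in UVABs. The second, with 9.06%, set replicate 2 of UVABs apart at -29.2, while the other UVABs libraries had 7.17 to 11.9. For some of the genes in which that library was extreme, the change without it is also given. Levels are in CPM, counts scaled to a common library size after TMM, given as mean ± SD over libraries, and changes are log2 fold changes of UVABs over LPS ± an approximate SE, taken from the size of the change and the test's F statistic. Genes are called (rose or fell) at an adjusted p under 0.05 by edgeR's quasi-likelihood test with Benjamini-Hochberg adjustment. In bulk RNA, fewer cells of a type and less RNA per cell cannot be told apart.

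Between UVABs and LPS, 7161 of the 12465 genes tested passed (57.4%), of which 3566 rose (28.6%) and 3595 fell (28.8%). Most changes were small, since 4737 of the called genes (66.15%) changed less than 1.5-fold. At least 2-fold changes were found for 586 genes that rose (4.7% of all genes tested) and 284 that fell (2.28%). All 5 UVABs libraries lay above all 5 LPS libraries in 2549 genes (20.4%) and below them in 2727 (21.9%). The median log2 fold change over all genes tested was 0.000288 with quartiles at -0.26 and 0.31. The lists below are to be read against these shares.

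**Figure D1:**
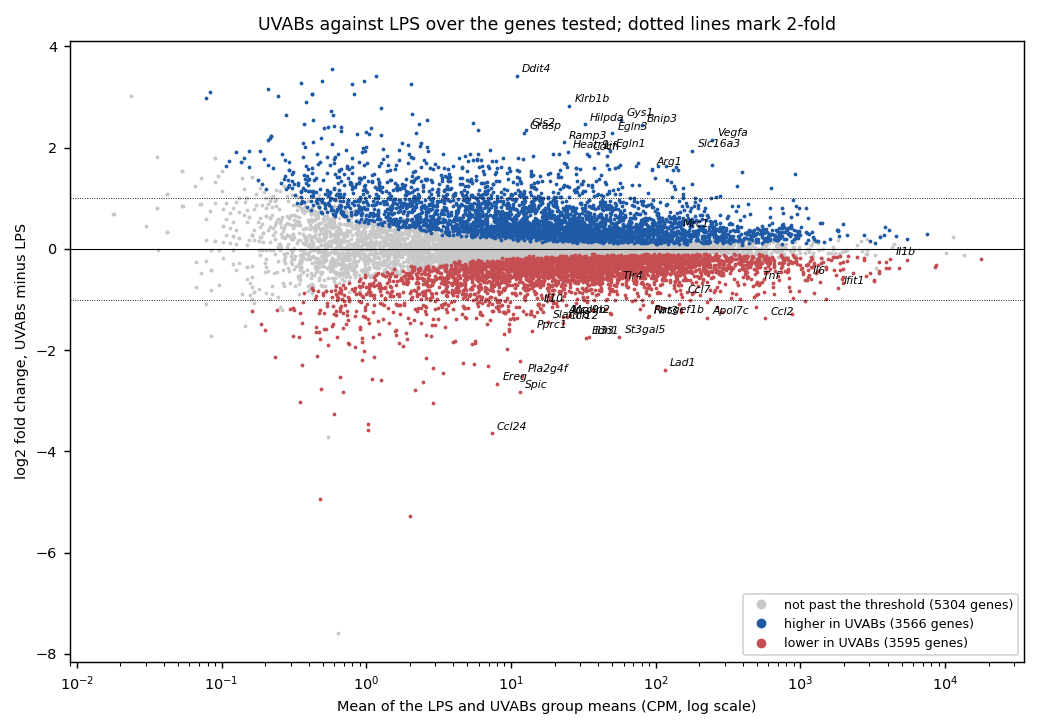
Each point is a tested gene, with the mean of its LPS and UVABs levels (CPM, log scale) on the horizontal axis and the log2 fold change of UVABs over LPS on the vertical axis. Blue points rose (3566 genes), red points fell (3595) and grey points did not pass (5304); Ddit4, Klrb1b and Gys1 lie at the top among the labelled genes and Ccl24 and Spic at the bottom.

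Macrophage identity was checked first. All 20 macrophage markers were tested, 7 rose, 7 fell, and their summed level was 20185 to 21958 CPM in LPS and 17875 to 19647 in UVABs. Of this sum Lyz2 alone, with counts that were not whole, held 9551 ± 477 CPM in LPS and 7408 ± 368 in UVABs. Csf1r, the receptor for the growth factor CSF1, fell from 255 ± 21.4 to 190.3 ± 23.1 CPM, and Mrc1, the mannose receptor, rose. Of 16 neutrophil and precursor markers, 14 rose and 0 fell (median 0.67), and their sum was 1967 to 2689 CPM in LPS and 3476 to 4422 in UVABs. Among them S100a8, a subunit of the calcium-binding protein calprotectin, rose by 0.81 ± 0.09 and Ltf, the granule protein lactoferrin, by 1.01 ± 0.13. The mast cell and basophil sum was 65.2 to 92.4 CPM in LPS and 120.4 to 154.4 in UVABs, with 5 of 6 tested markers higher, led by the transcription factor gene Gata2 (1.83 ± 0.14). The defining markers Cpa3 (37.6 ± 10.5 to 60.9 ± 13.6 CPM, with overlap) and Mcpt8 (4.13 ± 0.538 to 7.06 ± 1.84 CPM) were among them. Kit fell (12.9 ± 1.51 to 10.2 ± 1.18 CPM), also with overlap. Other marker sums were 5513 to 5984 and 5459 to 6574 CPM for dendritic cells, 1943 to 2114 and 2325 to 2522 for stromal cells, of which Vim alone held 1893 ± 80.8 and 2279 ± 84.1, 672 to 760.2 and 826 to 905 for endothelial cells and platelets, and 483 to 521 and 418 to 514 for osteoclasts. Most of the dendritic cell sum came from Ccr7 (2492 ± 120 CPM in LPS and 3016 ± 240 in UVABs), Fscn1 and Itgax. The defining dendritic cell markers Flt3, Zbtb46, Clec9a and Xcr1 had 1.10, 48.4, 1.89 and 0.520 CPM in LPS. In UVABs these were 3.22, 58.8, 2.43 and 0.201 CPM. Kdr (468 ± 36.6 and 539 ± 81.0 CPM) and Pf4 held most of the endothelial and platelet sum. T and NK, B and erythroid markers each summed to at most 26.6 CPM in any of the 10 libraries. The defining T cell marker Cd3e had 0 counts in LPS and 2 in UVABs. Of 12 tested stromal markers, 4 rose and 4 fell. Among the defining ones, Col1a1 had 39 and 35 counts and Pdgfra 23 and 12. The third, Lepr, rose from 5.28 ± 0.804 to 13.7 ± 3.72 CPM without overlap, with 47.5 ± 2.15 in Con. The part of these cell types in the differences below was not tested. All reads were assigned to the mouse build mm39, so RNA carried in with the apoptotic bodies of hucMSC was not measured separately. Its part in the UVABs levels was not tested either.

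Genes of the response to low oxygen had the highest median of the 46 lists other than cell type markers. Of 35 hypoxia-induced genes outside glycolysis, 28 rose, 1 fell and 6 did not pass, with a median of 0.84, and in 27 all UVABs libraries lay above all LPS libraries. The member that fell was Wsb1, an E3 ligase subunit (-0.13 ± 0.05), whose call was lost in 12 of 23 alternative settings, among them without any of LPS replicates 2 to 5 or UVABs replicates 2 and 4 (-0.13 to -0.10). Bnip3, a mitochondrial protein that triggers mitophagy, had 18.4, 25.9, 26.2, 21.3 and 32.8 CPM in LPS libraries 1 to 5 and 142, 131, 138, 131 and 132 CPM in UVABs libraries 1 to 5. The groups were far apart, and Con at 51.0 ± 6.03 CPM lay between them (Bnip3 2.44 ± 0.10, edgeR adjusted p = 9.64e-14). Ddit4, an inhibitor of the growth kinase mTORC1, had 1.86, 2.12, 1.04, 1.44 and 2.88 CPM in LPS and 17.6, 44.4, 12.5, 11.6 and 14.2 in UVABs. Every UVABs library was above every LPS library, and replicate 2 stood well above the other UVABs libraries. Ddit4 rose by 3.42 ± 0.47, and by 2.90 without UVABs replicate 2.

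The oxygen sensors that mark HIF-1 for degradation, themselves HIF-1 targets, rose together. Egln1 had 16.9, 22.5, 22.7, 18.01 and 20.01 CPM in LPS and 79.2, 81.2, 80.5, 71.7 and 72.1 in UVABs (1.94 ± 0.07), and Egln3 had 13.8, 18.9, 17.1, 13.2 and 22.3 and 90.2, 86.6, 89.6, 66.0 and 83.9 (2.29 ± 0.14). For both genes no UVABs library came near the LPS range. Vegfa, the angiogenic growth factor, had 65.2, 97.2, 94.0, 80.4 and 113 CPM in LPS and 352, 619, 346, 326 and 362 in UVABs (2.16 ± 0.18). Hilpda, a lipid droplet protein that inhibits fat breakdown, had 6.22, 11.9, 10.3, 8.10 and 13.2 and 40.9, 98.6, 41.6, 41.9 and 50.6 CPM (2.46 ± 0.27). In both, replicate 2 of UVABs was the highest by a wide margin, and without it the values were 1.95 and 2.14. Mxi1, an antagonist of Myc, rose by 1.64 ± 0.09, and Bnip3l, the relative of Bnip3, by 0.83 ± 0.04.

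Most glycolysis genes also rose: of 25 enzymes and transporters, 21 rose and 2 fell, with a median of 0.45. Slc16a3, the exporter of lactate, had 60.6, 76.9, 81.1, 67.7 and 83.1 CPM in LPS and 268, 339, 274, 253 and 279 in UVABs. No UVABs library came near the LPS range, and the rise was 1.94 ± 0.11. Tpi1, triose phosphate isomerase, rose from 206 ± 17.1 to 589 ± 42.0 CPM and Pgam1, phosphoglycerate mutase, from 447 ± 24.6 to 780.1 ± 31.7 CPM. Pdk1, a kinase that inhibits pyruvate dehydrogenase, rose from 18.6 ± 1.64 to 56.0 ± 4.30 CPM. The 2 that fell were Slc2a6, a hexose transporter (647 ± 22.5 to 344 ± 17.3 CPM, -0.91 ± 0.05), and Aldoc, an aldolase (-0.36 ± 0.07, and -0.21 with replicates 1 to 3 only). Slc2a1, the main glucose transporter, counted here under apoptotic cell uptake, rose by 1.29 ± 0.09. Gapdh and Actg1, often used as reference genes, also rose (Gapdh 0.37 ± 0.07, Actg1 0.19 ± 0.06), although their counts were not whole in most libraries, so that reads shared with close copies make them uncertain.

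Several genes of glycogen storage rose by large factors. Gys1, glycogen synthase, had 14.7, 17.5, 18.4, 15.8 and 17.3 CPM in LPS libraries 1 to 5 and 101, 106, 96.9, 89.9 and 97.3 in UVABs libraries 1 to 5, with Con at 46.3 ± 4.52. Each UVABs library was far above each LPS library, and the rise was 2.55 ± 0.07 (edgeR adjusted p = 2.66e-16). Pgm1, which interconverts glucose 1- and 6-phosphate, rose by 1.63 ± 0.07, Gyg, the primer of glycogen chains, by 0.81 ± 0.04, and Pygb, a glycogen phosphorylase, by 0.84 ± 0.06. Of the 24 glycogen and pentose phosphate genes, 10 rose and 3 fell: the branching enzyme Gbe1 (-0.23 ± 0.08, not past the threshold with replicates 1 to 3 only, where its edgeR adjusted p was 0.0632) and the pentose phosphate enzymes G6pdx (-0.24 ± 0.04) and Pgd (-0.40 ± 0.05).

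Promoters of these genes were examined for the core of the hypoxia response element, ACGTG or GCGTG on either strand, in windows of 300 bases (250 before to 50 after a start). At least 1 core was present in 82.1% of 39 promoters of the hypoxia list and in 78.4% of 37 promoters of the glycolysis list, against 60.7% of promoters of all genes tested and 43.8% of all 32851 promoters in the table. The 3 sequences below are the 250 bases before the start of genes with a large rise, from RefSeq on GRCm38.p6, which is not the build of the deposited table, written 5′ to 3′ on the strand of the gene with the cores in capitals. Bnip3 lies at chr7:138909507-138909756 (minus strand), Egln1 at chr8:124949255-124949504 (minus strand) and Ddit4 at chr10:59951771-59952020 (minus strand).
Bnip3: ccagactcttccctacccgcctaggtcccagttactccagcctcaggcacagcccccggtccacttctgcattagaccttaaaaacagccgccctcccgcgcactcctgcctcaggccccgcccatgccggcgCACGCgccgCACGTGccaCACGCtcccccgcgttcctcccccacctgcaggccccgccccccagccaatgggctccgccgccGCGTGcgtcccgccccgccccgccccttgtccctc
Egln1: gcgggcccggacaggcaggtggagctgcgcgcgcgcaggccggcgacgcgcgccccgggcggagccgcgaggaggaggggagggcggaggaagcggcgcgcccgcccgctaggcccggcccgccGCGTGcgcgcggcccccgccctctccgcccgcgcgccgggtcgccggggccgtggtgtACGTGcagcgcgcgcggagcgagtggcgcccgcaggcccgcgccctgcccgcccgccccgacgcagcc
Ddit4: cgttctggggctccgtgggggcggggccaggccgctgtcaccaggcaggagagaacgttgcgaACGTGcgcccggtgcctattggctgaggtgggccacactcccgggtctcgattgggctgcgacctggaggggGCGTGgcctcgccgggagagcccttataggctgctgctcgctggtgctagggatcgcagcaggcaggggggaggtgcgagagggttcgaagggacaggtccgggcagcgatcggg
Bnip3 holds 5 matches, some of them overlapping on the opposite strands, and Egln1 and Ddit4 hold 2 each. The same window of Gys1 holds none. A match of letters is a description and not evidence of binding.

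**Figure D2:**
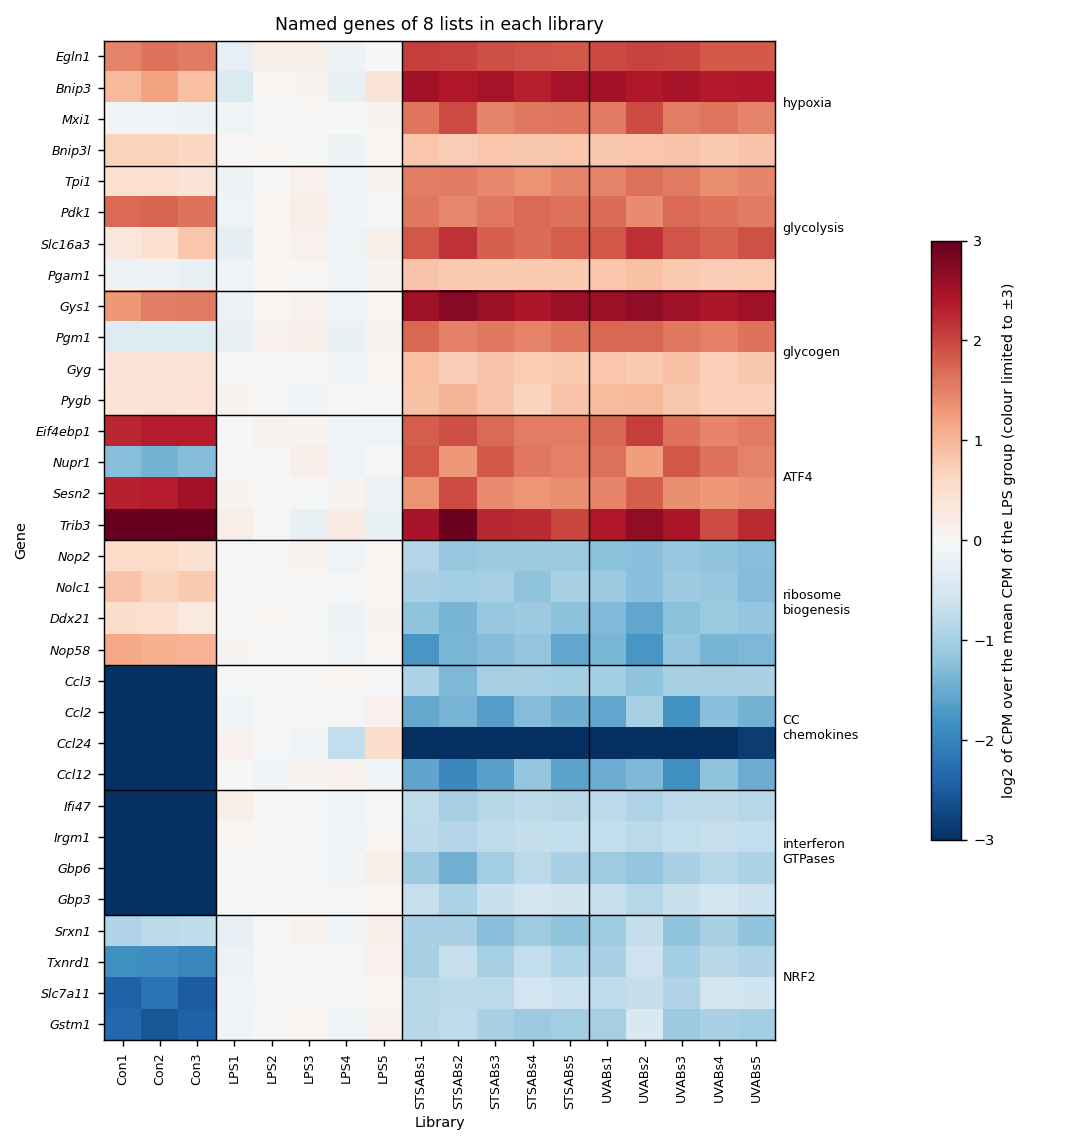
Each row is a gene named from 1 of 8 lists, up to 4 per list with the smallest adjusted p and without members that went against the majority, and each column a library, and colour gives the log2 ratio of its CPM to the mean CPM of the LPS group, limited to ±3. The plotted hypoxia, glycolysis, glycogen and ATF4 genes are above the LPS mean in every UVABs library, and the plotted ribosome biogenesis, CC chemokine, interferon GTPase and NRF2 genes are below it in every UVABs library.

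Most ATF4 targets rose in UVABs. Of 30 genes of the amino acid response, 25 rose and 3 fell, with a median of 0.55. Their summed level overlapped between the groups, at 1844 to 1952 CPM in LPS and 1899 to 1980 in UVABs. Trib3, a pseudokinase that restrains ATF4 and Akt, rose from 1.94 ± 0.299 to 9.95 ± 1.76 CPM (2.35 ± 0.20). Eif4ebp1, a repressor of cap-dependent translation, rose from 10.9 ± 0.822 to 35.7 ± 6.10 CPM (1.70 ± 0.10), and Sesn2, a leucine sensor that inhibits mTORC1, from 11.3 ± 0.810 to 31.3 ± 4.51 CPM (1.47 ± 0.12). Con had 38.2 ± 6.198 CPM of Trib3, 54.8 ± 1.67 of Eif4ebp1 and 59.3 ± 4.58 of Sesn2, above both the LPS and the UVABs means. Nupr1, a stress-induced chromatin protein, rose by 1.59 ± 0.11 and had 10.5 ± 0.532 CPM in Con. The 3 that fell are all amino acid transporters: Slc7a11, which imports cystine (-0.70 ± 0.07), its partner chain Slc3a2 (-0.32 ± 0.07) and the arginine transporter Slc7a1 (-0.28 ± 0.08). The glutathione-degrading Chac1 (2.66 ± 0.34) and asparagine synthetase Asns (0.74 ± 0.10), both named after their values were seen, also rose.

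The amino acid response core TGATGNA, searched on both strands, was found in 41.9% of 31 promoters of this list, against 7.41% of promoters of all genes tested and 12.2% of all promoters. Asns and Chac1 each hold 1 match in the 250 bases before the start (chr6:7693210-7693459, minus strand, and chr2:119350992-119351241, plus strand, GRCm38.p6, from RefSeq), in capitals below, with that of Chac1 on the opposite strand.
Asns: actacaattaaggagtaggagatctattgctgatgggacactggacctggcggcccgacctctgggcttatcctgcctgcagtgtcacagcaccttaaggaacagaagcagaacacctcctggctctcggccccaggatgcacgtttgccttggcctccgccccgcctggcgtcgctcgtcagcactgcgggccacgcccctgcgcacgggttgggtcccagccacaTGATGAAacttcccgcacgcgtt
Chac1: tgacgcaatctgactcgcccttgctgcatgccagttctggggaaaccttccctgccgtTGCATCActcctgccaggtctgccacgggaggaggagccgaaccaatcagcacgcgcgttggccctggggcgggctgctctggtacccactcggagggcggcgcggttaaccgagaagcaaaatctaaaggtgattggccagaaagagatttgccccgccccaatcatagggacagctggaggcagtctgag
The windows of Trib3 and Sesn2 hold no match before the start.

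In the unfolded protein response, 1 of 21 genes rose and 12 fell, with a median of -0.13. Those that fell included Syvn1, a ubiquitin ligase of endoplasmic reticulum quality control (-0.45 ± 0.07), the chaperones Dnajb9 (-0.62 ± 0.09) and Canx (-0.39 ± 0.06), and Herpud1 (-0.56 ± 0.09). The 1 that rose was Sdf2l1 (0.31 ± 0.07). Among 20 brakes and sensors of mTORC1, 8 rose and 2 fell. Castor1, an arginine sensor, rose by 1.78 ± 0.18, while Akt1s1, the mTORC1 inhibitor PRAS40, fell from 89.1 ± 10.2 to 51.7 ± 6.28 CPM, and Tsc2 fell by 0.21 on the log2 scale, a call lost with replicates 1 to 3 only (edgeR adjusted p = 0.0557).

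Genes that build ribosomes and genes of the ribosome itself moved in opposite directions. Of 32 ribosome biogenesis factors, 28 fell and 2 rose, with a median of -0.82, and 11 fell at least 2-fold. Nop58, a core protein of box C/D snoRNPs, fell from 14.3 ± 0.736 to 5.42 ± 0.754 CPM (-1.39 ± 0.10), the RNA helicase Ddx21 from 68.4 ± 4.13 to 28.4 ± 3.22 CPM, the rRNA methyltransferase Nop2 from 19.3 ± 1.10 to 8.25 ± 0.312 CPM and Nolc1 from 22.05 ± 0.854 to 9.80 ± 0.629 CPM. Npm1, nucleophosmin (0.19 ± 0.06), and Polr1c, a subunit of RNA polymerases I and III (0.26 ± 0.07), rose, with overlap between the groups in both, and Polr1c was at 0.41 with replicates 1 to 3 only. Of 80 cytosolic ribosomal protein genes, 73 rose and 0 fell, with a median of 0.29, and 47 had no overlap. Rpl4 rose from 858 ± 58.9 to 1163 ± 76.0 CPM and Rpl5 from 604 ± 28.5 to 809.5 ± 44.8 CPM. These genes held 3.78% ± 0.165 of the counts in LPS and 4.78% ± 0.293 in UVABs (SD, n = 5 libraries each). The translation elongation factor gene Eef2 had 1595, 1659.6, 1719, 1607 and 1559.5 CPM in LPS and 2305, 2264, 2458, 2143 and 2252 in UVABs, without overlap (Eef2 0.49 ± 0.05).

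**Figure D3:**
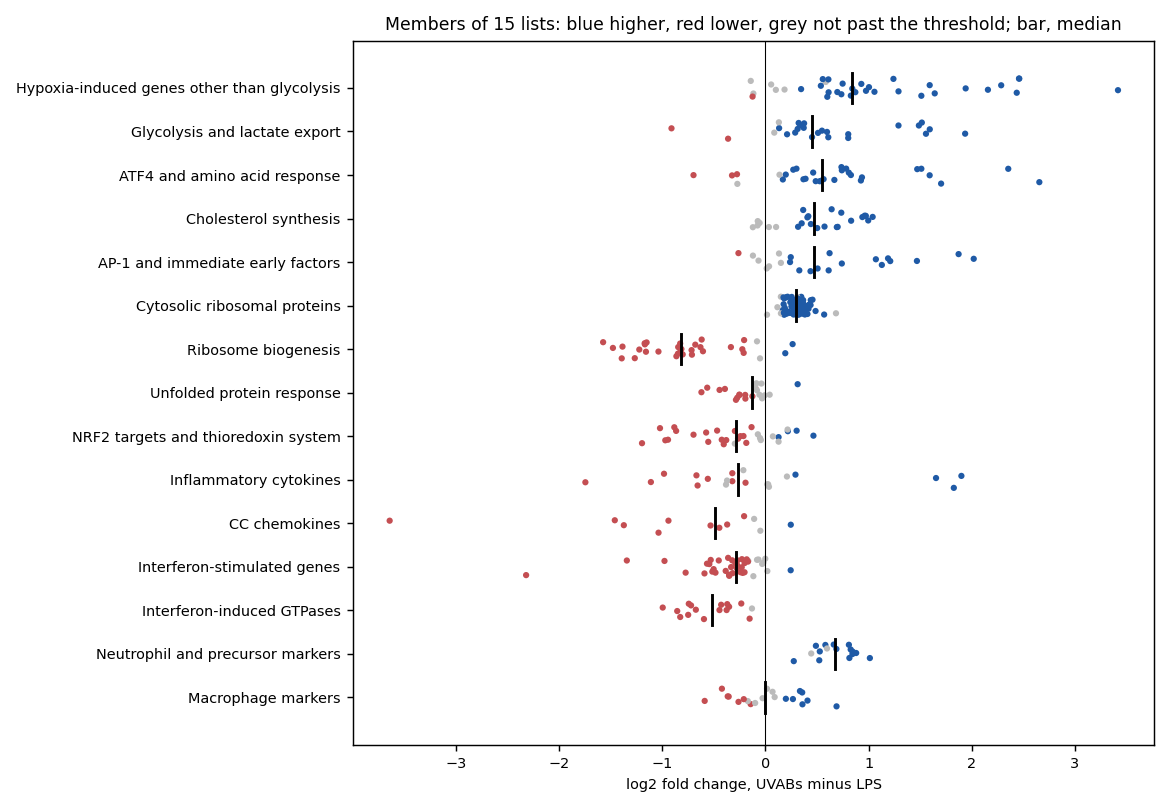
Each point is a tested member of 1 of 15 lists, placed by its log2 fold change of UVABs over LPS; blue members rose, red fell, grey did not pass, and the bar is the median. Cytosolic ribosomal proteins cluster around 0.29 and ribosome biogenesis factors around -0.82, and inflammatory cytokines have points on both sides.

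Sterol synthesis rose as a group. Of 24 tested genes of cholesterol synthesis and uptake, 18 rose and 0 fell, with a median of 0.47. Hmgcs1, the HMG-CoA synthase, rose from 68.7 ± 10.4 to 122 ± 10.7 CPM, Fdft1, squalene synthase, from 24.5 ± 5.80 to 50.4 ± 4.50 CPM, and Sc5d, a late desaturase, from 9.67 ± 2.25 to 19.0 ± 1.32 CPM. Among 25 genes of fatty acid synthesis and lipid droplets, 13 rose and 7 fell. The elongase Elovl5 (0.77 ± 0.06) and the desaturase Fads2 (1.63 ± 0.16), which both act on polyunsaturated fatty acids, rose, and the fatty acid activating enzymes Acsl1 (464 ± 43.6 to 251 ± 13.8 CPM) and Acsl5 (-0.64 ± 0.07) fell. Scd2, a stearoyl-CoA desaturase, counted under LXR targets, rose from 35.4 ± 0.995 to 115 ± 5.54 CPM, with 411 ± 13.3 in Con. Of 19 LXR targets and efflux genes 9 rose and 4 fell, among the latter Ch25h, which makes 25-hydroxycholesterol (628 ± 40.1 to 325 ± 27.2 CPM), the lysosomal cholesterol exporter Npc1 (-0.53 ± 0.05) and lipoprotein lipase Lpl (-0.84 ± 0.09). PPAR targets and fatty acid oxidation genes were mixed, with 7 of 25 higher and 5 lower. Acaa1a, a peroxisomal thiolase, rose by 0.67 ± 0.05 and Cd36, a fatty acid and scavenger receptor, fell by 0.73 on the log2 scale.

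Because the series title names linolamide, genes that make or break fatty acid amides were listed. Of 19 tested, 7 rose and 5 fell, and 3 fell with replicates 1 to 3 only. Faah, the hydrolase of fatty acid amides, rose from 22.7 ± 1.13 to 58.8 ± 8.48 CPM (1.37 ± 0.09, edgeR adjusted p = 6.87e-11), without overlap, and had 0.615 ± 0.0719 CPM in Con. Abhd4, on the path to N-acylethanolamines, rose by 0.45 ± 0.07, the cation channel gene Trpv2 rose by 0.37 ± 0.06, and Mgll, monoacylglycerol lipase, fell from 37.5 ± 3.34 to 24.9 ± 3.88 CPM. These are RNA levels, and no lipid was measured in these data.

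Cytokines of the LPS response were lower in part. Of 20 inflammatory cytokines, 9 fell and 4 rose, with a median of -0.27. Il6, the acute-phase cytokine, had 1306, 1330, 1368, 1291 and 1399 CPM in LPS libraries 1 to 5 and 891, 934, 845, 923 and 950.2 in UVABs libraries 1 to 5. The groups did not overlap, and UVABs stood far above Con (3.80 ± 0.502 CPM). Il6 fell by 0.56 on the log2 scale (± 0.05, edgeR adjusted p = 9.61e-09). Tnf, tumour necrosis factor, had 590.5, 617, 635, 632 and 589 CPM in LPS and 419, 277, 430.4, 405 and 409 in UVABs, where replicate 2 was the lowest (-0.66 ± 0.10, and -0.56 without UVABs replicate 2). Il1b had 4538, 4478, 4622, 4499 and 4083 CPM in LPS and 3556, 4653, 3562, 3981 and 3677 in UVABs. The ranges overlapped only through UVABs replicate 2, and the other UVABs libraries lay below all LPS libraries. The change of Il1b was small (-0.19 ± 0.07, edgeR adjusted p = 0.0300) and its call was lost in 9 of 23 alternatives. These included those without any of LPS replicates 1 to 4 or UVABs replicates 1, 3 and 5 (-0.19 to -0.16). Over all 23 alternatives the change lay between -0.27 and -0.15. Il1a, encoding the related interleukin-1 alpha, fell further, from 2011 ± 77.1 to 1017 ± 126 CPM.

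Il10, the main anti-inflammatory cytokine of macrophages, also fell: it had 18.4, 22.5, 21.0, 18.9 and 24.9 CPM in LPS and 10.8, 7.01, 11.9, 9.26 and 9.87 in UVABs, without overlap (-1.11 ± 0.13), and 0 in Con. Il33, an alarmin of the interleukin-1 family, had 45.6, 57.6, 52.0, 46.7 and 64.3 CPM in LPS and 17.6, 16.05, 12.1, 18.1 and 15.5 in UVABs (-1.75 ± 0.11), again without overlap. Among the 4 cytokines that rose, Lif, a cytokine of the interleukin-6 family, had 15.5, 15.0, 17.0, 16.4 and 20.6 and 64.0, 84.1, 55.4, 51.6 and 60.2 CPM, without overlap (1.90 ± 0.14). Tnfsf9, the ligand of the co-stimulatory receptor 4-1BB, rose from 27.2 ± 1.74 to 85.6 ± 7.53 CPM (1.65 ± 0.08), and Il23a, the p19 chain of interleukin 23, named after its values were seen, from 20.3 ± 1.55 to 71.9 ± 18.1 CPM (1.83 ± 0.14).

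**Figure D4:**
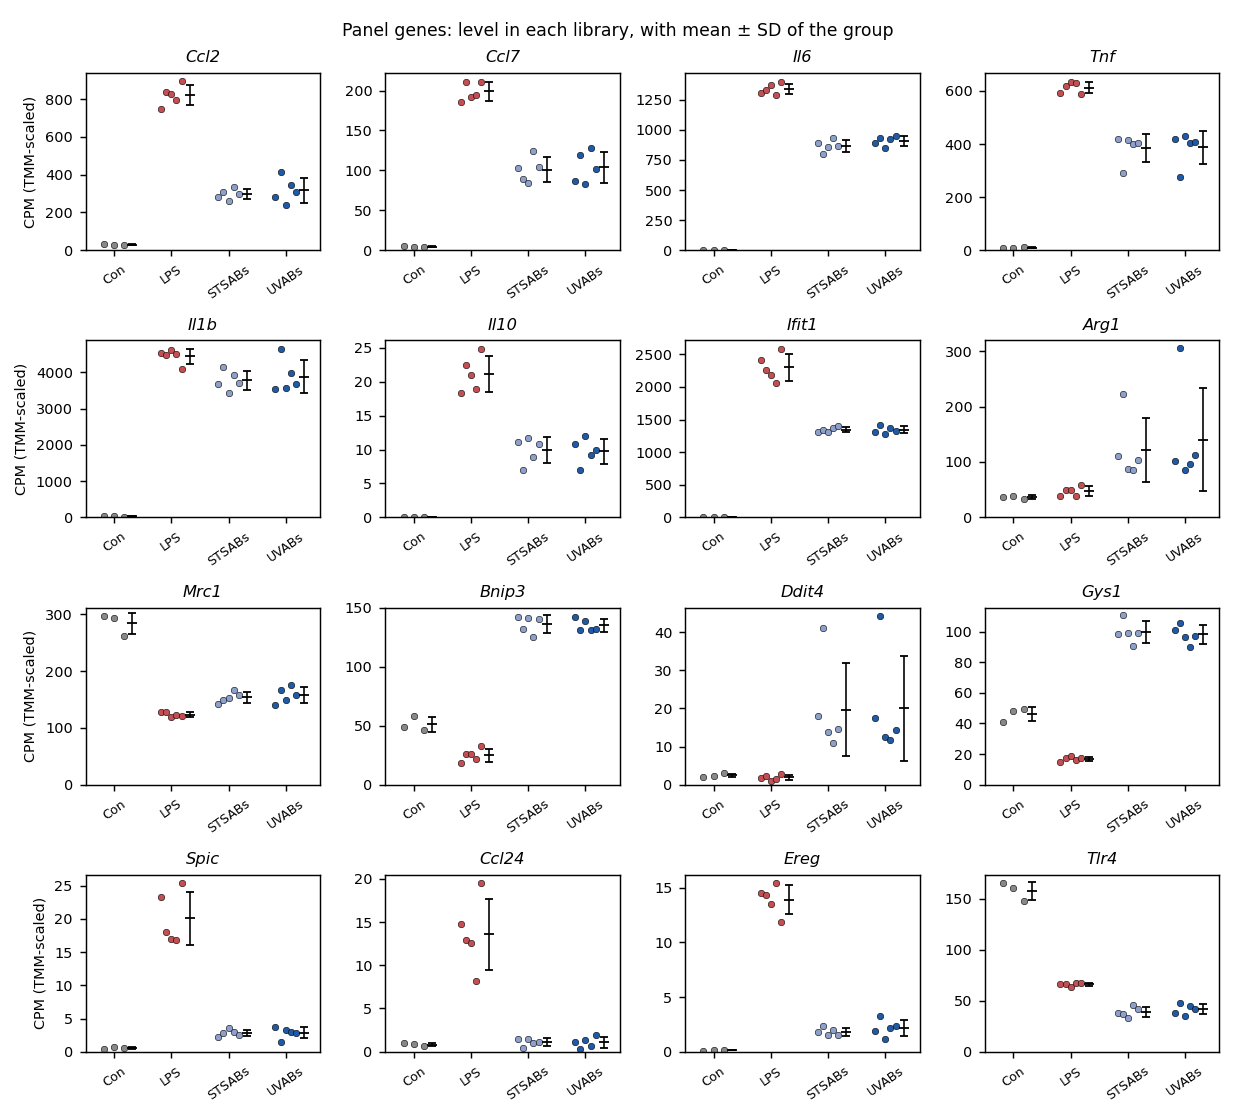
Each small plot gives the level (CPM, linear axis from 0) of a panel gene in each library of the 4 groups, with the mean ± SD beside the points (n = 3 for Con and 5 for the other groups). In UVABs the points of Bnip3, Gys1, Ddit4, Arg1 and Mrc1 lie above those of LPS, Il1b overlaps, and those of the other 10 genes lie below.

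Most CC chemokines, which attract monocytes and other leukocytes, fell. Of 12 CC chemokines, 9 fell, 1 rose and 2 did not pass, with a median of -0.49. Ccl2, the main monocyte attractant, had 749, 835, 829.8, 796 and 894 CPM in LPS and 281, 412, 238, 345 and 307 in UVABs. The highest UVABs library, replicate 2, was still well below the lowest LPS library, and the change was -1.37 ± 0.10. Its neighbours in function fell too, Ccl7 from 199 ± 11.5 to 104 ± 19.8 CPM, Ccl12 from 33.7 ± 2.70 to 12.2 ± 1.90 CPM and Ccl3 from 1440.4 ± 43.7 to 702 ± 44.0 CPM. Ccl24, an eosinophil attractant, had 14.8, 13.0, 12.6, 8.16 and 19.5 CPM in LPS and 1.15, 0.359, 1.37, 0.640 and 1.88 in UVABs, near the Con level of 0.819 ± 0.186 (-3.65 ± 0.27). Ccl22, a ligand of CCR4, had 20183, 18433, 19365, 18545 and 18309.6 CPM in LPS and 17217, 15802, 16038, 15553 and 17519.9 in UVABs, and fell by 0.21 on the log2 scale, without overlap. Ccl5 was the 1 that rose (4218 ± 349.9 to 4999.7 ± 690.4 CPM, 0.25 ± 0.09), with overlap, and it did not pass without LPS replicate 1 (0.20) or without UVABs replicate 2 (0.17), and was at 0.39 with replicates 1 to 3 only.

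Of 9 tested CXC chemokines, 5 fell and 2 rose. The neutrophil attractants Cxcl2 (404 ± 33.3 to 169.8 ± 34.9 CPM), Cxcl3 (1233 ± 106 to 509 ± 209.7 CPM) and Cxcl1 (97.1 ± 7.21 to 60.7 ± 12.5 CPM) fell, as did Cxcl9 (-0.76 ± 0.15) and Cxcl10 (-0.37 ± 0.08), the interferon-induced ligands of CXCR3. Cxcl10 had 4699, 4480.4, 4748, 4339 and 4741 CPM in LPS and 3429.6, 4258, 3419.6, 3313 and 3392 in UVABs, where only replicate 2 came close to the LPS range. The platelet chemokines Ppbp (1.27 ± 0.34) and Pf4 (0.24 ± 0.10) rose. Without UVABs replicate 2, Ppbp was at 0.67, still past the threshold, and Pf4 at 0.09, no longer past it. Pf4 lost its call in 12 of 23 alternatives, among them those without any of LPS replicates 1 to 5 or UVABs replicates 1 and 5 (0.20 to 0.25). Chemoattractant receptors were divided, with 4 of 13 higher and 4 lower, including the complement receptor C3ar1 (0.46 ± 0.05) and Cxcr4 (0.87 ± 0.14) above and the formyl peptide receptor Fpr1 (-0.41 ± 0.06) and Ccrl2 (-0.43 ± 0.06) below.

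Of 16 inflammatory enzymes and effectors, 7 rose and 4 fell. Acod1, which makes itaconate, had 3734, 4075, 4108, 3726 and 3955 CPM in LPS and 2535, 2635, 2363, 2621 and 2516 in UVABs, without overlap (-0.63 ± 0.05). Edn1, the vasoconstrictor endothelin-1, had 47.9, 52.8, 55.0, 51.9 and 48.9 and 15.0, 9.34, 15.7, 18.7 and 17.0 CPM (-1.76 ± 0.13), also without overlap. Marcksl1, an actin regulator, rose by 0.35 ± 0.04 and Alox5ap, required for leukotriene synthesis, by 0.61 ± 0.09. In arginine and polyamine metabolism 8 of 21 genes rose and 9 fell. Arg1, the arginase often used to mark alternative activation, had 37.8, 49.4, 49.9, 38.5 and 59.1 CPM in LPS and 102, 306, 85.0, 96.1 and 112 in UVABs. All UVABs libraries were above all LPS libraries, and replicate 2 stood far above the rest (1.58 ± 0.30, and 1.07 without UVABs replicate 2). Arg2, the mitochondrial arginase, rose by 0.91 ± 0.09 and Azin2, an antizyme inhibitor, by 1.22 ± 0.09, while Amd1, which feeds spermidine synthesis, fell by 1.11 and Gch1, the first enzyme of tetrahydrobiopterin synthesis, by 0.47 on the log2 scale.

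Interferon-stimulated genes fell broadly and by small amounts. Of 40 tested, 31 fell, 1 rose and 8 did not pass, with a median of -0.29, and 29 had no overlap. Ifit1, an RNA-binding antiviral protein, had 2412, 2259, 2181, 2062 and 2585 CPM in LPS and 1317, 1424, 1285, 1378 and 1318 in UVABs (-0.77 ± 0.07), Rsad2, viperin, had 4851, 5549, 5412, 5113 and 6222 and 4206, 4251, 3930.1, 4226 and 4162 (-0.39 ± 0.08), and Ifit2 had 4099.8, 4052, 3891, 3846 and 4341 and 2918, 2551, 2782, 3217 and 2986 (-0.48 ± 0.08). In none of the 3 did the groups overlap, and all UVABs libraries remained far above Con (3.80 ± 0.974, 5.46 ± 1.53 and 8.97 ± 1.54 CPM). Larger falls were found for Apol9a (-2.32 ± 0.10), Apol9b (-1.34 ± 0.10) and Ifit1bl1 (-0.98 ± 0.07), whose counts, like those of Ifit1, were partly not whole and may share reads with relatives. The 1 listed gene that rose, Ifi27l2a (0.24 ± 0.10), lost its call in 8 of 23 alternatives. Among them were those without any of LPS replicates 1, 2, 3 and 5 or UVABs replicates 1, 3 and 4 (0.20 to 0.26). Cmpk2, a mitochondrial nucleotide kinase (-0.54 ± 0.07), and Rnf213, a large antimicrobial ubiquitin ligase (-0.62 ± 0.08), also fell. Ifitm1, an interferon-induced gene that is not on this list and is described below, rose by 1.48 ± 0.19 without overlap.

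Of the 16 interferon-induced GTPases, which coat pathogen vacuoles, 15 fell and 0 rose (median -0.52). Irgm1 fell from 1049.5 ± 50.6 to 627 ± 20.2 CPM, Ifi47 from 1084 ± 85.7 to 611 ± 25.9 CPM, Gbp6 from 512 ± 38.9 to 256 ± 21.8 CPM and Gbp3 from 799 ± 20.1 to 501 ± 37.8 CPM. Genes of the interferon pathway itself moved both ways, 8 of 21 up and 7 down, the latter 4 with scaling by library totals alone. Stat2 (736 ± 67.4 to 996 ± 55.4 CPM) and the receptor chain Ifnar1 (0.30 ± 0.04) rose, as did the DNA-sensing adaptor Sting1 (0.34 ± 0.06).

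The interferon-stimulated response element, searched as a pair of GAAA with 2 bases between them on either strand, was present in 53.7% of 41 promoters of the interferon-stimulated list, against 3.32% of promoters of all genes tested and 3.44% of all promoters. Ifit1 (chr19:34640639-34640888, plus strand) holds 2 such elements and Rsad2 (chr12:26456453-26456702, minus strand) 1, all on the opposite strand, so that the capitals below read TTTC (RefSeq, GRCm38.p6).
Ifit1: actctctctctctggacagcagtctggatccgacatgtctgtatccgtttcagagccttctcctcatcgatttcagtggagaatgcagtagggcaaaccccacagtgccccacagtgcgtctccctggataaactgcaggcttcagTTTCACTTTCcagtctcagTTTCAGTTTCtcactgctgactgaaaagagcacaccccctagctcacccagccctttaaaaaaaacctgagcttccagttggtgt
Rsad2: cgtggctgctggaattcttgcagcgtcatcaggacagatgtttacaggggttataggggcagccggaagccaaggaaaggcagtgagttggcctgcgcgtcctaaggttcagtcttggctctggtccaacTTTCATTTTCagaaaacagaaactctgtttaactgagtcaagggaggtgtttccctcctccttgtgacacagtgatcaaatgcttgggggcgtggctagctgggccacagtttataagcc
Ifit2, which fell beside them, holds none in the windows of the table before its starts.

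Receptors and signalling genes upstream of these responses moved in both directions. Tlr4, the receptor of LPS, had 66.4, 66.0, 63.1, 67.1 and 67.9 CPM in LPS and 38.3, 47.4, 35.3, 44.9 and 41.8 in UVABs, with 158 ± 9.08 in Con (-0.67 ± 0.08, no overlap). Of 25 Toll-like receptors and adaptors, 9 fell and 4 rose. Tlr3, a sensor of double-stranded RNA, fell by 0.50 on the log2 scale and Tlr13, a sensor of bacterial ribosomal RNA, by 0.38, while Ticam2, the adaptor TRAM, rose by 0.46 ± 0.06. NF-kB subunits and inhibitors were split, with 5 of 22 higher and 6 lower. The higher count was 8 with scaling by library totals alone or without replicate 2 of both apoptotic body groups. The precursor subunit Nfkb1 fell from 1318 ± 21.8 to 1035 ± 16.6 CPM, the kinase complex subunit Ikbkg by 0.44 and the inhibitor Tnip3 by 0.55 on the log2 scale, and Nfkbia, the inhibitor IkB alpha, rose from 793 ± 28.8 to 1020.4 ± 57.5 CPM. Among 21 feedback inhibitors and mRNA decay factors 8 rose and 6 fell, with the decoy receptor Il1r2 (68.1 ± 8.71 to 209.6 ± 72.1 CPM) above and the RNase gene Zc3h12c (108 ± 5.27 to 47.4 ± 9.43 CPM) below. Il1rn, the interleukin-1 receptor antagonist, had 3651, 4114, 4188, 3646 and 4459 CPM in LPS and 3000.5, 2829.5, 3004, 3087 and 2970 in UVABs, without overlap (-0.43 ± 0.06).

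Immediate early factors rose: 15 of 22 were higher and 1 lower, with a median of 0.47. The orphan nuclear receptors Nr4a1 (8.69 ± 1.11 to 20.1 ± 2.93 CPM) and Nr4a2 (7.50 ± 0.966 to 20.8 ± 3.98 CPM), Egr1 (8.805 ± 0.776 to 18.5 ± 3.39 CPM) and Jund (0.62 ± 0.10) were among them. Klf6 was the 1 that fell (-0.26 ± 0.08).

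Antioxidant genes fell. Of 30 tested NRF2 targets and genes of the thioredoxin system, 19 fell and 4 rose, with a median of -0.28. Srxn1, sulfiredoxin, fell from 92.4 ± 9.9995 to 45.5 ± 6.62 CPM, Txnrd1, thioredoxin reductase, from 432 ± 33.8 to 237 ± 26.6 CPM, and the glutathione transferase Gstm1 from 193 ± 13.7 to 105 ± 20.7 CPM. With scaling by library totals alone, 7 members rose, and without UVABs replicate 2, 2 rose. All 9 genes of the phagocyte NADPH oxidase list passed, 5 up and 4 down, with 3 up without LPS replicate 1 or without UVABs replicate 2 and 2 down under a stricter filter. The proton channel Hvcn1 fell by 0.86 and the catalytic subunit Cybb by 0.42 on the log2 scale, and the cytosolic subunit Ncf1 rose by 0.32 ± 0.05. In iron and haem handling, 12 of 23 fell and 3 rose. Spic, the transcription factor of iron-recycling macrophages, had 23.2, 17.99, 17.0, 16.9 and 25.4 CPM in LPS and 3.76, 1.497, 3.21, 2.97 and 2.76 in UVABs, without overlap (-2.82 ± 0.16). Slc40a1, the iron exporter ferroportin, fell from 8.26 ± 0.879 to 3.21 ± 0.347 CPM, and Hamp, which encodes the hormone hepcidin that degrades ferroportin, rose from 17.7 ± 3.23 to 28.1 ± 3.51 CPM.

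Mitochondrial, autophagy and lysosomal genes moved in both directions. Of 41 oxidative phosphorylation genes 8 rose and 10 fell, and of 26 genes of the tricarboxylic acid cycle and itaconate 4 rose and 10 fell, which became 3 and 5 that fell with replicates 1 to 3 only. Without UVABs replicate 2 or UVABs replicate 3, 5 oxidative phosphorylation genes rose. The mitochondrial citrate carrier Slc25a1 (74.2 ± 2.21 to 129 ± 7.09 CPM) and citrate synthase Cs (0.36 ± 0.04) rose. Among 32 autophagy and mitophagy genes 15 rose and 6 fell, with Wipi1 (1.06 ± 0.10) and Trp53inp1 (0.99 ± 0.10) beside Bnip3 and Bnip3l. Of 30 genes of lysosomal hydrolases and acidification 12 fell and 6 rose. The acid lipase Lipa (-0.61 ± 0.05) and the proton pump subunit Atp6v1b2 (-0.56 ± 0.05) fell, and the calcium channel Mcoln1 rose (0.67 ± 0.08). Psap, the precursor of the saposins, had 8497, 9724, 10191, 9292 and 10247 CPM in LPS and 7919, 7535, 7757, 7565 and 7728 in UVABs, without overlap (-0.32 ± 0.06).

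Markers of alternative activation did not rise as a group: 6 of 32 rose and 14 fell, and 9 fell with replicates 1 to 3 only. Beside Arg1, Mrc1 rose, with 128, 129, 119, 122 and 120.2 CPM in LPS and 139.7, 166, 149, 176 and 158 in UVABs against 284 ± 18.8 in Con (0.36 ± 0.06), and so did Stat6, the transducer of interleukin 4 (0.32 ± 0.04). Il10rb (-0.42 ± 0.05) fell with Ccl24 and Il1rn. Of 33 tested genes of apoptotic cell uptake 12 rose and 10 fell. Cd300lf, a phosphatidylserine receptor, rose by 0.57 ± 0.06, whereas the uptake receptor Mertk fell from 551 ± 22.1 to 366 ± 52.1 CPM and the phospholipid-binding Anxa1 from 1342 ± 92.4 to 875 ± 45.7 CPM. Scavenger and lectin receptors mostly fell, 13 of 22 against 4 that rose. Olr1, a receptor of oxidised LDL, fell from 209 ± 12.4 to 91.9 ± 11.9 CPM, Marco from 108 ± 6.73 to 53.6 ± 7.37 CPM and Clec4e, a sensor of mycobacterial glycolipid, from 848 ± 53.4 to 459 ± 24.3 CPM. The lectin-like receptor gene Klrb1b went the other way, with 5.45, 5.998, 6.99, 6.78 and 6.14 CPM in LPS and 37.8, 69.5, 37.4, 41.2 and 36.4 in UVABs, where replicate 2 was the highest and Con had 38.8 ± 2.37 (2.82 ± 0.18).

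Antigen presentation genes were listed by class. Of 19 genes of the class I pathway 9 fell and 2 rose, and of 20 genes of class II and co-stimulation 9 rose and 4 fell. Psmb10, an immunoproteasome subunit, fell from 304 ± 8.25 to 172 ± 5.00 CPM, the peptide editor Tapbpl by 0.38 and the trimming peptidase Erap1 by 0.66 on the log2 scale. The class II chain H2-Ab1 had 3386, 3384, 3687, 3544 and 3153 CPM in LPS and 4315, 3786, 4588, 3834 and 4111 in UVABs, without overlap (H2-Ab1 0.27 ± 0.06), and H2-Eb1 rose by 0.24 ± 0.06 with overlap. Co-stimulatory molecules were divided: Cd83 rose (0.46 ± 0.06), and Cd40 (1686 ± 71.9 to 1065 ± 141 CPM) and Tnfsf4, the OX40 ligand (79.5 ± 4.42 to 42.3 ± 1.97 CPM), fell. In the inflammasome and pyroptosis list 10 of 23 fell and 6 rose, and the count that fell was 6 with scaling by library totals alone. Ripk3 and Mlkl, the kinase and the effector of necroptosis, moved apart, with Ripk3 up (19.6 ± 1.56 to 43.2 ± 3.62 CPM) and Mlkl down (-0.53 ± 0.06), and Casp4, the sensor of cytosolic LPS in the mouse, was lower (-0.41 ± 0.06).

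Growth and survival genes were mixed. Of 33 S phase genes 7 rose and 5 fell, and of 30 mitotic genes 9 rose and 4 fell, so that most did not pass. Without UVABs replicate 4, 8 S phase genes fell, and with replicates 1 to 3 only, 4 mitotic genes rose. Pcna, the DNA polymerase clamp, fell from 137 ± 6.18 to 84.4 ± 4.82 CPM, Gins2 rose by 0.65 ± 0.07 and the spindle checkpoint gene Mad2l1 fell by 0.58 on the log2 scale. Of 34 apoptosis regulators and p53 targets 13 rose and 11 fell, with the pro-apoptotic Bmf (1.18 ± 0.09) and Trp53 itself (0.45 ± 0.06) above and Bid (-0.70 ± 0.08) below. Growth factors fell in 10 of 22 and rose in 5, and 3 rose under a stricter filter. Csf1, the macrophage growth factor, fell from 197 ± 9.76 to 93.2 ± 3.34 CPM. Ereg, an EGF receptor ligand, had 14.5, 14.3, 13.5, 15.4 and 11.9 CPM in LPS and 1.94, 3.23, 1.19, 2.21 and 2.35 in UVABs, without overlap (-2.67 ± 0.15). Pdgfa (2.51 ± 0.345 to 9.28 ± 1.69 CPM) and Gdf11 (0.764 ± 0.200 to 4.51 ± 0.771 CPM) rose.

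Matrix genes and their proteases fell in 11 of 25 and rose in 7. The collagen gene Col5a3 fell from 18.9 ± 0.952 to 4.07 ± 0.796 CPM and the inhibitor Timp3 from 14.8 ± 2.11 to 5.74 ± 1.54 CPM, while Plat, tissue plasminogen activator, rose from 72.3 ± 2.31 to 182 ± 20.01 CPM. Of 22 integrins and adhesion genes 11 fell and 5 rose. The hyaluronan receptor Cd44 (650 ± 29.1 to 407 ± 25.7 CPM) and Vcam1 (-0.85 ± 0.10) fell, and Selplg, the P-selectin ligand, rose (0.69 ± 0.06). Myeloid transcription factors went up in 9 of 28 and down in 9, among them Runx3 (1.11 ± 0.08) and Runx2 (-0.68 ± 0.07), which moved in opposite directions, and Cebpd, which fell (-0.96 ± 0.06).

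**Figure D5:**
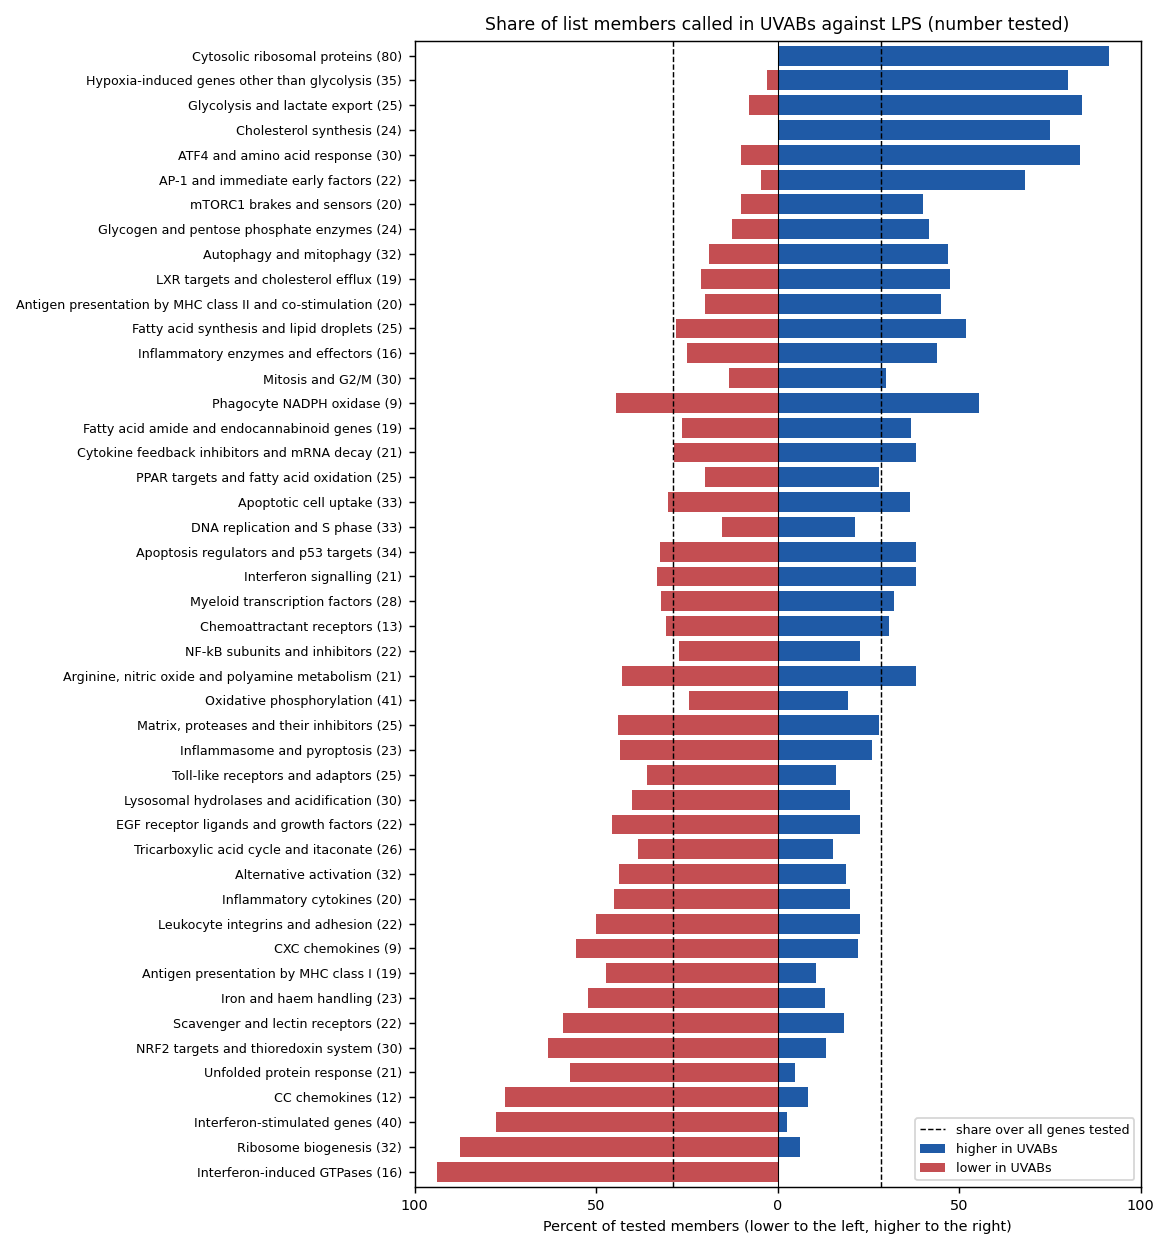
Bars give the percent of tested members of each list that rose (right, blue) or fell (left, red) in UVABs against LPS, with the number tested in parentheses and dashed lines at the shares over all genes tested (28.6% and 28.8%). Cytosolic ribosomal proteins, hypoxia, glycolysis, cholesterol synthesis and ATF4 genes lead at the top, and interferon-induced GTPases, ribosome biogenesis, interferon-stimulated genes and CC chemokines at the bottom.

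Several of the largest changes lay outside these lists. Gls2, a glutaminase, had 3.65, 3.999, 4.53, 3.84 and 4.79 CPM in LPS and 19.1, 41.5, 16.6, 13.5 and 15.6 in UVABs (2.35 ± 0.33, and 1.96 without UVABs replicate 2). Ramp3, a partner of calcitonin-family receptors, had 8.56, 6.97, 8.76, 8.58 and 10.7 and 24.7, 100.2, 19.7, 18.1 and 24.97 CPM, and its rise of 2.10 ± 0.48 became 1.32 without that library. In both genes the other 4 UVABs libraries still lay above all LPS libraries. The scaffold gene Grasp (4.14 ± 0.593 to 20.3 ± 5.22 CPM), Coch, cochlin (14.2 ± 1.44 to 52.6 ± 6.28 CPM), and Heatr9 (10.3 ± 1.27 to 38.9 ± 6.11 CPM) also rose.

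Among the largest falls, Lad1, which encodes the anchoring filament protein ladinin, had 205, 196, 187, 202 and 176 CPM in LPS and 38.3, 19.9, 45.0, 39.0 and 42.0 in UVABs (-2.39 ± 0.17). Pla2g4f, a cytosolic phospholipase A2, had 20.4, 22.4, 22.1, 19.6 and 17.4 and 3.94, 2.63, 4.39, 3.20 and 3.76 CPM (-2.50 ± 0.12). St3gal5, the synthase of the ganglioside GM3, had 82.1, 89.2, 89.0, 87.0 and 82.9 and 26.0, 20.3, 27.1, 27.0 and 28.8 CPM (-1.74 ± 0.08). In each of these no UVABs library came near the LPS range. Pprc1, a co-activator of mitochondrial gene expression, fell from 21.0 ± 1.36 to 6.81 ± 1.06 CPM, the endolysosomal channel Mcoln2 from 34.7 ± 3.53 to 13.7 ± 0.884 CPM, Flrt3 from 128 ± 5.26 to 50.1 ± 4.90 CPM, Slamf8 from 26.3 ± 2.30 to 9.68 ± 0.699 CPM, Rasgef1b from 128 ± 8.13 to 50.8 ± 13.2 CPM and Apol7c, with counts that were not whole in most libraries, from 326 ± 70.3 to 127 ± 19.6 CPM.

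Measured as a difference in CPM rather than a ratio, Cst3, cystatin C, Ifitm1, an antiviral membrane protein, and the protease Furin were among the largest rises. Ifitm1 had 554, 441, 469, 499.6 and 442 CPM in LPS and 1141, 2244, 1179, 1032 and 1131 in UVABs (1.48 ± 0.19), and Furin had 719.6, 826, 854, 769.8 and 814 and 1535, 1052, 1493, 1416 and 1507 (0.81 ± 0.09), both without overlap. Cst3 overlapped between the groups (3287 ± 311 to 4419 ± 1012 CPM), and its value of 0.43 ± 0.13 became 0.28 without UVABs replicate 2. Eef1a1 and Lyz2, with counts that were not whole in any library, changed by 0.30 ± 0.05 and -0.37 ± 0.06.

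Against the other apoptotic body group, the UVABs libraries showed no called difference. Of the 12465 genes tested, 0 passed (0%) with edgeR's quasi-likelihood test, DESeq2 or limma-voom, and 198, 151 and 191 genes had an unadjusted p under 0.05 (198 is 1.59% of genes). If no gene differed, a share of 5% would be expected there. The smallest adjusted p of edgeR's test was 1, and blocking on replicate number in a fit of both apoptotic body groups alone gave 0 that passed and 457 with an unadjusted p under 0.05. The median absolute log2 difference was 0.04, beside 0.28 between UVABs and LPS. For Bnip3 the difference of UVABs from STSABs was -0.01 ± 0.09, for Gys1 -0.02 ± 0.06, for Il6 0.07 ± 0.05, for Ccl2 0.09 ± 0.10 and for Arg1 0.20 ± 0.29 (log2 ± SE). The approximate 95% interval reached at most 0.78 to either side of the difference among the 16 panel genes, so differences of that size in the noisiest of them could not be detected. Of the genes described above, none is therefore shown to be particular to UVABs.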

How the data were processed

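Trizol extracts were selected for poly(A) RNA on oligo(dT) beads, strands were marked with dUTP, and libraries were sequenced from both ends on a NovaSeq instrument, per the labels' protocols. HISAT2 and the build mm39 were used, per the submitters' processing notes; versions, annotation, counting tool and strand use are not given in the sources used. The deposited values are the authors' estimated counts, not normalized, for 16909 gene symbols; 6.35% of values were not whole, in 2017 genes, and all were rounded to whole numbers. Genes with such values may share reads with close copies, and overlapping or antisense genes cannot be told apart.

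Genes were filtered with filterByExpr, leaving 12465, and scaled by TMM, whose factors averaged 1.51 in Con, 0.902 in LPS and 0.928 in UVABs, so that levels beside Con rest on this scaling. UVABs replicates 4 and 5 carry a shorter spelling in their labels, which the series' text gives as the same treatment. The quasi-likelihood test of edgeR 4.0.16 (R 4.3.3) took all 18 libraries in a model of group means, and UVABs were compared with LPS and with STSABs at a Benjamini-Hochberg adjusted p of 0.05. The procedure was tested on simulated data with few changed genes, a common spread for all genes and independent libraries. That setting is simpler than these data, so the test does not give the error rates here. Totals of 17588357 to 18675283 counts per library set the precision.

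The comparison, 56 gene lists and the naming rule were chosen with earlier results of these data known. The rule takes a panel of 16 genes, the 15 largest log2 fold changes in each direction among genes that reach 20 CPM in 1 group and do not overlap, the 10 largest differences in CPM in each direction, and up to 4 called members of a list by smallest adjusted p, with members against its majority where 3 or fewer; predicted gene symbols were left out, and some genes the rule names are not reported here. Promoters came from a RefSeq table on GRCm38.p6, matched by symbol for 9991 tested genes, and no coordinates of the deposited table are given because it holds none.

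Alternatives were other scalings, filters and tests (DESeq2 1.42.0, limma 3.58.1), subsets of libraries, omission of single libraries and a replicate block. Same-numbered STSABs and UVABs libraries deviated together (correlations of 0.116, 0.54, 0.129, 0.288 and 0.137), so their numbers were taken to pair them in the blocked fits. The main test and its SE did not use these numbers, which no label gives as pairs. For UVABs replicate 5 the closest STSABs library had another number. No 2 libraries of LPS, and no 2 of UVABs, agreed within sampling noise.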

Additional observations from a re-analysis of the deposited data

Results flagged for a closer look

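Among the 61 genes of the panel, the largest fold changes and the largest differences in level, the 5 libraries of LPS and of UVABs were searched for a library far from the others, by Dixon's gap test with its critical value of 0.710. Of 122 groups of values, 21 had such a library, where chance gives about 1 in 20, and 15 of them were replicate 2 of UVABs. It was the highest UVABs library for Arg1 (306 CPM, nearest 112), Ddit4 (44.4 CPM, nearest 17.6), Klrb1b (69.5 CPM, nearest 41.2), Hilpda (98.6 CPM, nearest 50.6) and Gls2 (41.5 CPM, nearest 19.1). It was also the highest for Grasp (29.5 CPM, nearest 19.1), Vegfa (619 CPM, nearest 362), Ramp3 (100.2 CPM, nearest 24.97), Cst3 (6165 CPM, nearest 4346), Ifitm1 (2244 CPM, nearest 1179) and Cxcl10 (4258 CPM, nearest 3429.6). It was the lowest for Tnf (277 CPM, nearest 405), Lad1 (19.9 CPM, nearest 38.3), Rasgef1b (27.7 CPM, nearest 54.1) and Furin (1052 CPM, nearest 1416). The library also stood apart on the second principal component. STSABs replicate 2 was the extreme STSABs library on the same side for 15 of these 15 genes, with 223 CPM of Arg1 (the other STSABs libraries 85.2 to 111), 41.2 of Ddit4 (10.99 to 18.02), 87.5 of Hilpda (39.1 to 43.97) and 85.1 of Ramp3 (18.9 to 23.3). What the replicates numbered 2 share was not tested.

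In LPS, replicate 1 was the highest for Eef1a1 (7379 CPM, nearest 6620.3), the lowest for Actg1 (5003 CPM, nearest 5117) and the highest for H2-Eb1 (3702 CPM, nearest 3201). In LPS, replicate 5 was the lowest for Il1b (4083 CPM, nearest 4478). In UVABs, replicate 3 was the lowest for Rsad2 (3930.1 CPM, nearest 4162). In UVABs, replicate 4 was the lowest for Egln3 (66.0 CPM, nearest 83.9).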

How the results depend on the processing

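The number of genes that rose in UVABs against LPS was between 2993 and 3937 under all alternatives, and the number that fell between 2972 and 3755, within 1.5 times of the main 3566 and 3595. The lowest counts came from replicates 1 to 3 only. Scaling by library totals alone gave 3937 that rose and 3155 that fell and moved the median of all genes to 0.0403. Without replicate 2 of both apoptotic body groups 3602 rose and 3730 fell. Leaving out 1 library at a time gave 3381 to 3518 and 3399 to 3534. Same-numbered LPS and UVABs libraries did not deviate together (correlations of -0.00316 to 0.0267) and were not taken as pairs. With the replicate number as a block, 3703 rose and 3755 fell, and 3530 and 3392 in a blocked fit of these groups alone, chosen after seeing the data, where Wsb1 did not pass (-0.11). UVABs against STSABs gave 0 genes in every alternative, the blocked ones included.

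Of 270 named genes, 260 kept their call in every alternative, 10 lost it in some and 0 reversed. Those whose loss is not given above are Hp, lost without LPS replicate 1 (0.21) or LPS replicate 4 (0.20), Kit and Nfatc1, lost with replicates 1 to 3 only (-0.30 and 0.17). Of 2576 counts of list members under alternatives, 70 moved by over 1.5 times or changed to or from 0, mostly counts of 5 or fewer. Small changes and genes of a few counts are at the limit of this depth and number of libraries.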
